A study of Mus musculus with 8 samples.

Results

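The cytosolic ribosomal protein genes were the 76 genes of 24015 in the count table whose symbols are Rpl or Rps followed by a number (with a or x where present), Rplp0, Rplp1, Rplp2 or Rpsa. They comprise 30 genes of the small ribosomal subunit and 46 of the large subunit, and 75 of them had enough counts to be tested among the 13908 tested genes. The remaining member, Rpl26, had between 0 and 2 counts in every library. RNA-Seq was performed on hematopoietic cluster cells and on endothelial cells of E11.5 mouse embryos. They came from the aorta–gonad–mesonephros (AGM) region with the vitelline and umbilical arteries, sites at which hematopoietic stem cells emerge from the vessel wall. Clusters were sorted as Ter119-, VE-Cadherin+ and c-Kit+, and endothelium as VE-Cadherin+ cells without Kit, CD41, CD45 or Ter119. Both were taken from wild type (WT) embryos and from Sl/Sl embryos, which carry a germline deletion that removes Kit ligand (Kitl) and are therefore not a model of losing Kitl in a single cell type. Each of the 4 groups had 2 libraries of 100 cells, made with Smart-seq2 from cells of single or pooled embryos. The study's methods name 2 sorting experiments, and which library came from which is not given in the sources used here.

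A ribosome is built from ribosomal RNA and one copy of most of these proteins, so cells need them in matched amounts. The messages of many ribosomal protein genes begin with a run of C and T bases, the terminal oligopyrimidine (TOP) tract, through which their translation follows nutrient and growth factor signals. Hematopoietic precursors are known to be sensitive to ribosome dose, since loss of one copy of several of these genes causes Diamond-Blackfan anemia.

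The libraries held between 8933236 and 13428214 counts on genes. Of 10 endothelial marker genes, 10 were higher in endothelium than in clusters, and of 10 hematopoietic marker genes 9 were lower, both at an adjusted p-value under 0.1 in edgeR's quasi-likelihood test. Kitl had 1250 and 923 counts in WT endothelium and 6 and 2 in Sl/Sl endothelium. In clusters it had 110 and 0 counts in WT and 1 and 3 in Sl/Sl, so that this gene did not separate the library labelled WT clusters replicate 2 from the Sl/Sl libraries. Markers of other cell types varied between libraries. The summed level of 10 mesenchymal marker genes was 5283 CPM (counts scaled to a common library total) in Sl/Sl clusters replicate 2 and between 401 and 1159 CPM in the other cluster libraries. In endothelium it was 1844 and 341 CPM in WT and 532.5 and 1323 CPM in Sl/Sl. The summed level of 10 muscle genes was 368 and 862 CPM in Sl/Sl clusters and 34.7 and 87.9 CPM in WT clusters, with 46.2 to 87.6 CPM in endothelium. Of the 368 CPM in Sl/Sl clusters replicate 1, Actc1 alone made 335 CPM. The 10 endothelial genes summed to 239 CPM in WT clusters replicate 2 and to 537 to 2295 CPM in the other cluster libraries. The 10 macrophage genes measured summed to 278 to 862 CPM in clusters and to 6.91 to 34.9 CPM in endothelium, with 8 of them lower in endothelium at that threshold. The 10 erythroid genes summed to 266 CPM in Sl/Sl clusters replicate 1 and to 24.4 to 109 CPM in the other libraries. The 8 germ cell genes summed to 27.8 to 123 CPM over all libraries. The part of these cells in the results was not tested, and values without single libraries are given beside some of the results.

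Ribosomal protein genes took between 1.81% and 2.37% of all counts on genes. The share was 2.37% and 2.21% in WT clusters, 2.08% and 1.93% in Sl/Sl clusters, 1.85% and 1.96% in WT endothelium, and 1.92% and 1.81% in Sl/Sl endothelium. Both WT cluster libraries lay above the other 6 libraries, and Sl/Sl clusters overlapped WT endothelium but not Sl/Sl endothelium, from which they were separated by less than the SD of either group. On totals scaled by TMM factors (trimmed mean of M-values, which set the bulk of genes level between libraries) the group means were 2.18% ± 0.027 (SD, n = 2) in WT clusters, 1.93% ± 0.165 in Sl/Sl clusters, 1.98% ± 0.140 in WT endothelium and 1.96% ± 0.054 in Sl/Sl endothelium, and on this scale Sl/Sl clusters overlapped both endothelial groups. Genes of the small subunit held 48.3% to 51.1% of the members' counts in each library. In bulk samples a change in the makeup of the cells and a change in RNA per cell cannot be told apart.

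Levels per length covered a wide range between the genes. In mean RPKM (counts divided by exon length and by the library's total) over the 8 libraries, 17 members were over 500 RPKM and 31 under 100 RPKM. Among the high members, Rps14, a protein of the small subunit, had a mean of 1712 RPKM, Rpl32 had 1424 and Rpl4 had 1237 RPKM. Rps14 ranged from 1480 RPKM in Sl/Sl clusters replicate 2 to 2010 RPKM in WT clusters replicate 1. The 5 highest members together held 30.3% of the summed RPKM of all members, and between 29.6% and 31.6% in any single library.

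The lowest levels among the tested members were those of Rpl5, which binds 5S ribosomal RNA and restrains Mdm2, at 21.6 RPKM, Rpl17 at 24.4, Rpl23a at 26.1 and Rps15a at 29.1 RPKM. Rpl5 lay between 17.0 and 26.3 RPKM over the 8 libraries. The median member level was 290 RPKM for the small subunit and 104 RPKM for the large subunit. Among members known for other roles, Rps19, the gene most often mutated in Diamond-Blackfan anemia, had 620 RPKM and Rpl11, the partner of Rpl5, had 56.2 RPKM. The stalk proteins Rplp0, Rplp1 and Rplp2, which recruit translation factors, had 912, 853 and 281 RPKM.

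**Figure D1:**
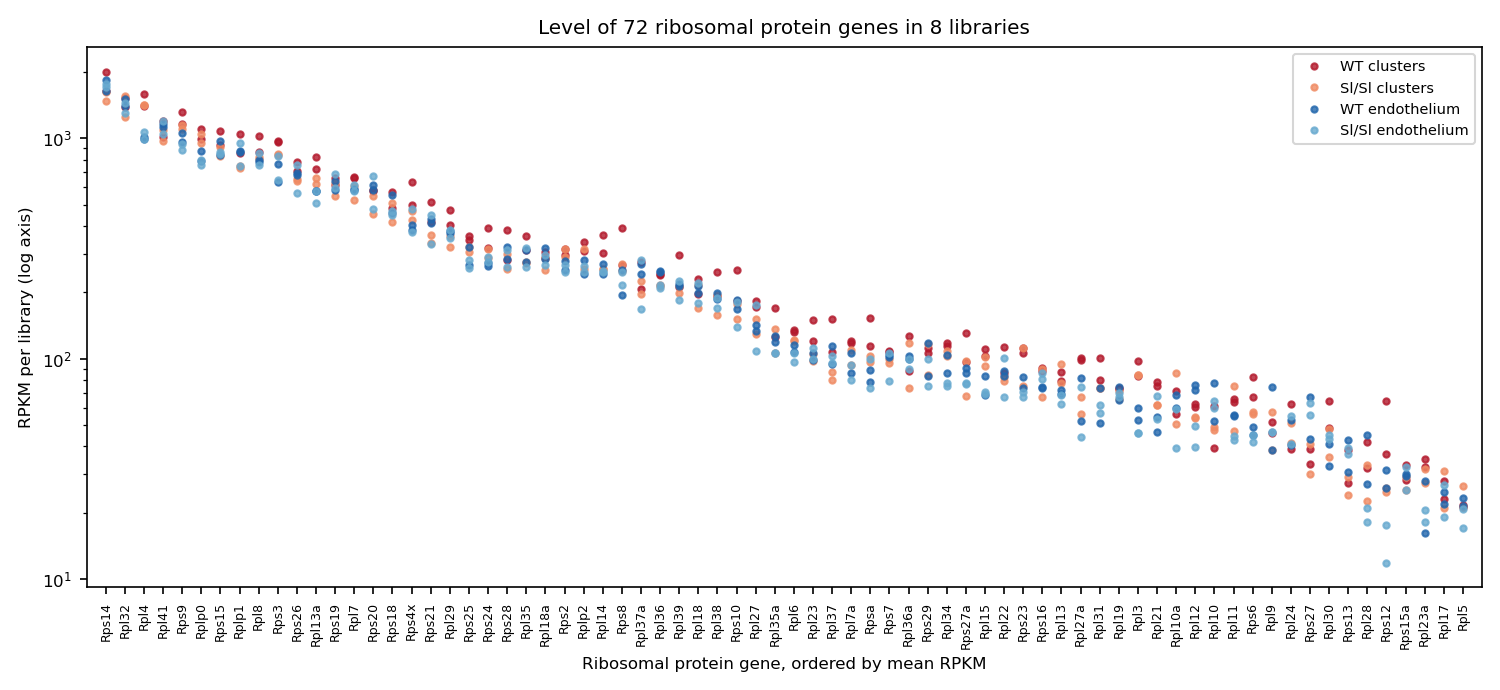
RPKM on a log axis of 72 tested ribosomal protein genes, ordered by mean; each point is 1 of the 8 libraries, colored by group. The order runs from Rps14 at a mean of 1712 RPKM to Rpl5 at 21.6 RPKM, and for most genes the 8 points lie close together.

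Ribosomal protein genes have many processed copies in the mouse genome, and reads from such genes can be hard to place. Windows of 75 bases were taken along each gene's exons and searched for elsewhere in the NCBIM37 genome, the build of the count table. The median member had 61.6% of its windows in a further place, against 0.741% for other genes, and 45 of 76 members (59.2%) had more than 50% of their windows elsewhere, against 3.68% of other genes. Rpl4 had 8.89%, whereas Rpl28 had 100%, Rpl12 98.3%, Rps12 97.8% and Rpl3 89.2%. Across the 75 tested genes, log2 mean RPKM and the share of copied windows had a Pearson r of -0.48 and a Spearman rho of -0.48, where genes are not independent replicates. The 10 members with up to 25% of windows elsewhere had a median of 826 RPKM and the 26 members over 75% had a median of 73.1 RPKM. Rps15a, at 4.35% of windows and 29.1 RPKM, did not follow this order, and its listed exons span 5134 bases, the longest of the members. How reads with several matches were counted is not given in the sources used here, so the order of levels is uncertain for members with many copies. The median levels of both subunits and the members' share of counts depend on it as well.

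**Figure D2:**
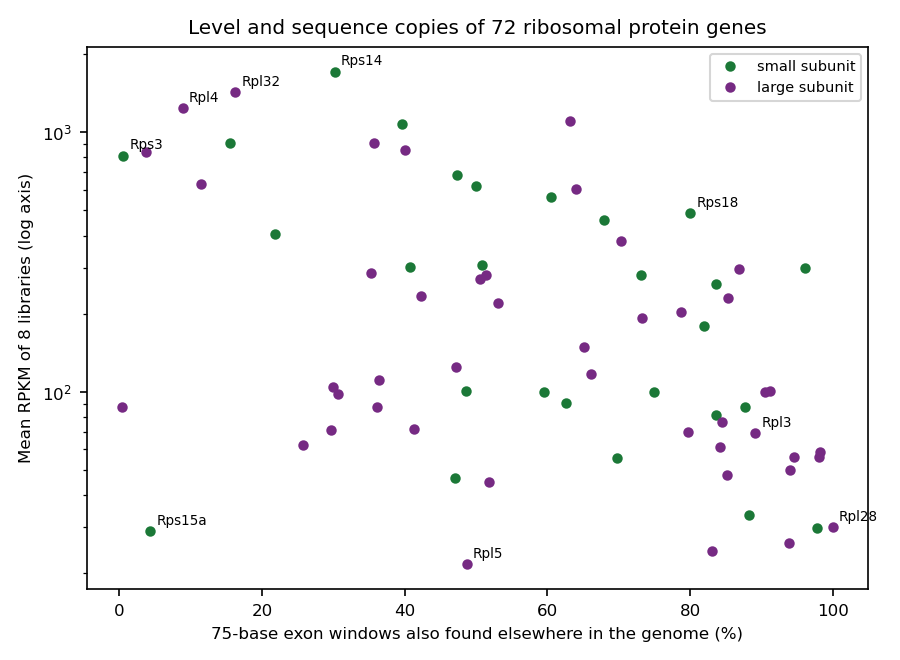
Mean RPKM of 8 libraries (log axis) against the percent of each gene's 75-base exon windows that also occur elsewhere in the genome; each point is 1 of 72 ribosomal protein genes, colored by subunit. Rpl4, at 8.89% and 1237 RPKM, lies at the top left, and Rpl28 at 100% lies at the lower right.

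A further caution concerns 11 members that share exon positions with another gene of the table. Rpl26 shares 95.8% of its exon length with Gm15772 on the same strand, Rpl30 shares 76% with Gm12191, Rps27 60% with Rps27rt and Rpl34 59.9% with Rpl34-ps1. Rpl5 shares 47.7% with Fam69a on the opposite strand. The low counts of Rpl26 and the levels of the other genes named here are therefore uncertain, and whether the overlaps account for them was not tested.

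The start of the transcript was then examined in RefSeq's annotation of GRCm38.p6, a later build than that of the counts, in which 56 of the 76 members had an entry. A TOP start was counted where the first transcribed base was C and the next 4 bases were C or T on the transcribed strand. Of the 56 members, 13 (23.2%) had at least 1 such start, against 2.74% of the other genes of the table and 3.01% of all 27025 genes of the reference table. Among genes of the same machinery, 4 of 31 translation factors and 0 of 47 ribosome biogenesis genes had one. The 30 bases around the annotated start are shown for members described here, 15 before it and 15 from it on, with the run of C and T that begins at the start in capitals. The first 3 have a TOP start and the last pair do not, at these annotated positions. In the sequence shown for Rpl4 a run of C and T bases lies before the annotated start. Other start positions were not examined, so a member counted without a TOP start here is not shown to lack the tract.
Rps6 (chr4:86857353-86857382, minus strand): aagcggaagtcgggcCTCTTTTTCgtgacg
Rpl15 (chr14:18270972-18271001, minus strand): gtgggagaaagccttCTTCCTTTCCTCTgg
Rps27 (chr3:90213634-90213663, minus strand): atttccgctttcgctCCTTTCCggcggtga
Rpl4 (chr9:64173372-64173401, plus strand): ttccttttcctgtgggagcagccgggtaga
Rplp0 (chr5:115559452-115559481, plus strand): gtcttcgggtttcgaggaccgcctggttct

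Between libraries the members held their levels more closely than most genes. The median standard deviation within groups was 0.166 on the log2 CPM scale for the 75 members and 0.743 for the other tested genes. At or above the members' lower quartile of expression the medians were 0.149 for 56 members and 0.337 for the other genes. The highest library lay within 2-fold of the lowest for 68 of 75 members (90.7%) and for 1598 of the 13908 tested genes, or for 98.2% of members and 35.9% of tested genes at that level. Correlations of log2 CPM, across genes, between pairs of libraries were 0.972 to 0.993 across all 76 members, the nearly uncounted Rpl26 among them. They were 0.691 to 0.853 across all tested genes, over 28 pairs. These sets were not matched for level: the median of mean log2 CPM was 6.84 for the 75 tested members and 4.21 for the other tested genes.

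Rps12, a small subunit protein, had the widest spread of the members. It had 17.7 and 32.7 CPM in WT clusters, 13.2 and 12.1 in Sl/Sl clusters, 16.5 and 14.1 in WT endothelium, and 6.39 and 9.64 in Sl/Sl endothelium, a range of 5.01-fold on the log2 CPM scale with a prior count of 2. The library labelled WT clusters replicate 2 was the highest and both Sl/Sl endothelium libraries were the lowest. The other members over 2-fold were Rps27, Rpl28, Rpl10, Rpl9, Rpl27a and Rpl10a, from 2.03-fold to 2.5-fold. Of these 7 members, Rps12, Rpl28, Rpl10, Rpl9 and Rpl10a have 84.2% to 100% of their windows elsewhere in the genome, and Rps27 and Rpl27a, with 47.1% and 41.4%, lie below the members' median.

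Endothelium was next compared with clusters, which asks whether vessel wall cells and the blood-forming cells beside them differ in these genes. Of the 75 members, 2 were lower in endothelium and 0 were higher over the mean of both genotypes, where called means a Benjamini-Hochberg adjusted p-value under 0.1 over all tested genes in edgeR. Over all tested genes 16.6% were called, 8.48% higher and 8.12% lower. DESeq2 called the same 2 members, and 21.2% of the genes it fitted. The median log2 fold change was -0.02 for the members and -0.07 for all tested genes, and 3 of 75 members (4%) differed by at least 0.5 on the log2 scale either way, against 61.9% of all tested genes. The median SE was 0.21 for the members and 0.59 for all tested genes. These sets were not matched for level, so the shares at 0.5 are not directly comparable. For 63 of the 75 members the approximate 95% interval of the log2 fold change lay within 1 of 0.

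Rpl4, a large subunit protein that lines the exit tunnel, was one of the 2 called members. It had 1852 and 2218 CPM in WT clusters, 1975 and 1890 in Sl/Sl clusters, 1477 and 1495 in WT endothelium, and 1467 and 1614 in Sl/Sl endothelium. Every endothelial library lay below every cluster library. The log2 fold change was -0.39 (SE 0.11), with an adjusted p-value of 0.0536 in edgeR. Rpl4 lies at chr9:64021194-64026369 of mm9, the build named with the counts.

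Rpl3, a large subunit protein near the peptidyl transferase center, was the other. Its levels were 106 and 130 CPM in WT clusters, 112 and 107 in Sl/Sl clusters, 83.3 and 76.0 in WT endothelium, and 65.3 and 66.7 in Sl/Sl endothelium. The cell types did not overlap, and the log2 fold change was -0.65 (SE 0.22) with an adjusted p-value of 0.095 in edgeR. Rpl3 lies at chr15:79908211-79913836 of mm9, and 89.2% of its windows occur elsewhere. Leaving out any 1 library took Rpl3 over the threshold, to adjusted p-values of 0.137 to 0.252 in edgeR, and Rpl4 stayed under it without WT clusters replicate 1 or Sl/Sl endothelium replicate 2 but had adjusted p-values of 0.103 to 0.169 without any of the other 6.

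Other members had similar differences without passing the test. Rps6, the substrate of S6 kinase, had 107 and 91.3 CPM in WT clusters, 75.8 ± 1.11 (SD, n = 2) in Sl/Sl clusters, 64.1 and 72.1 in WT endothelium, and 65.7 and 62.2 in Sl/Sl endothelium. All 4 cluster libraries were above the endothelial libraries, with a log2 fold change of -0.39 (SE 0.23, edgeR adjusted p-value 0.323). The values were -0.36 (SE 0.18) for Rpl15 and -0.22 (SE 0.12) for the stalk base Rplp0, with adjusted p-values of 0.25 and 0.284.

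In the other direction, Rps27 had 20.8 and 18.6 CPM in WT clusters and 23.1 and 16.1 in Sl/Sl clusters, against 25.4 and 40.7 in WT endothelium and 33.2 and 38.5 in Sl/Sl endothelium. Its log2 fold change of 0.81 (SE 0.42) was the highest of the members and had an adjusted p-value of 0.261 in edgeR. Rpl41, Rpl10 and Rps14 had log2 fold changes of 0.21, 0.49 and 0.18, with adjusted p-values of 0.382 to 0.404. Libraries of the 2 cell types did not overlap for 5 members that were lower in endothelium and 3 that were higher, against 9.57% and 10.1% of all tested genes.

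**Figure D3:**
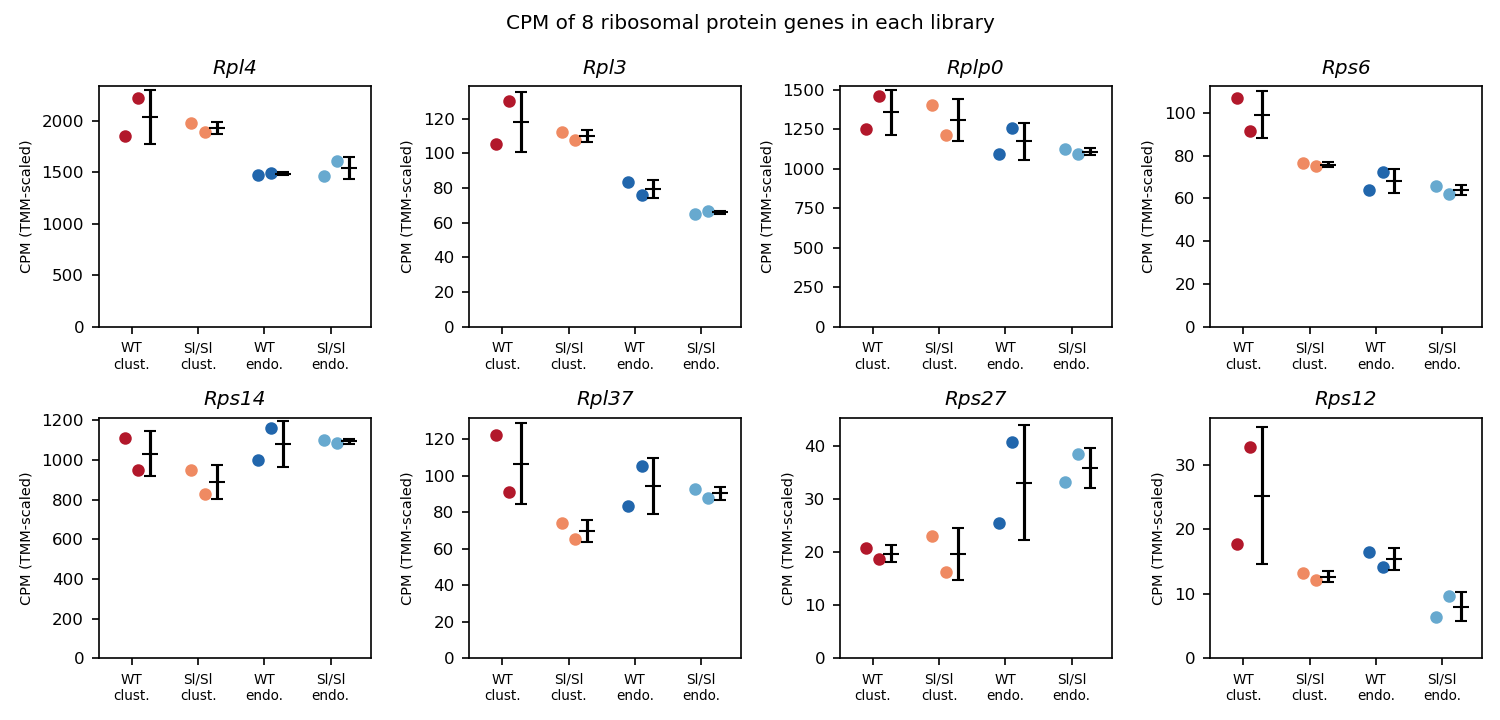
TMM-scaled CPM (linear axes from 0) of 8 ribosomal protein genes; points are the 2 libraries of each group, and the bar beside them is the mean with its SD (n = 2). Rpl4 and Rpl3 are lower in all 4 endothelial libraries, and Rps12 and Rps27 vary most.

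Within a single genotype 0 of 75 members passed in edgeR, in WT (8.24% of all tested genes called) and in Sl/Sl (2.83%), with 0 called by DESeq2 (15.3% and 9.55% of the genes it fitted). At an unadjusted p-value under 0.05 there was 1 member in each genotype, against 19.5% of all tested genes in WT and 14.4% in Sl/Sl. The median log2 fold change was -0.10 in WT, with 46 of 75 members lower in endothelium against 50.2% of all tested genes. It was 0.10 in Sl/Sl, with 29 lower against 52.6%, but -0.02 with 42 lower without Sl/Sl clusters replicate 2, and 0.0065 with 36 lower without Sl/Sl endothelium replicate 1. The 2 comparisons share no library, and the difference between them is the interaction given below.

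Longer members tended to be the lower ones in endothelium, a relation chosen after the values were seen. Across the 75 members the log2 fold change and log2 exon length had a Pearson r of -0.30 and a Spearman rho of -0.40, against 0.068 and 0.067 across all tested genes. Of the 11 members over 1300 bases 9 were fitted lower, with a median of -0.22, and of the 28 members up to 600 bases 9 were, with a median of 0.08. All tested genes differed the same way between these length classes, with 6345 of 11862 fitted lower and a median of -0.09 over 1300 bases, and 167 of 367 and a median of 0.065 up to 600 bases. Fitting with an offset for exon length left Rpl4 called and Rpl3 at an adjusted p-value of 0.128 in edgeR. The part of transcript length was not tested further.

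Sl/Sl clusters were then compared with WT clusters, which asks what loss of Kitl does in cells that depend on its receptor. No gene was called in edgeR, so 0 of 75 members passed against 0% of all tested genes, with 0 members at an unadjusted p-value under 0.05 (4.22% of all tested genes) and 0 called by DESeq2. DESeq2 called 175 of the 17077 genes it fitted (1.02%), so the count over all genes depends on the tool. The fitted values were mostly on one side: 70 of 75 members were lower in Sl/Sl, against 47.5% of all tested genes, and the median log2 fold change was -0.18, against 0.03. Libraries did not overlap and were lower in Sl/Sl for 35 members, against 16.2% of all tested genes, and were higher for 0 members, against 16.4%. Members were not matched here to other tested genes for level or spread (median SD within groups 0.166 and 0.743 on the log2 CPM scale). All members share the same libraries and scaling, so these counts of members are not independent observations. Markers of several other cell types were fitted mostly higher in Sl/Sl clusters. These were 9 of 9 muscle genes tested (median log2 fold change 5.21), 10 of 10 mesenchymal genes (1.38) and 9 of 10 endothelial genes (1.00). Fitted higher were also 5 of 6 erythroid genes tested (2.66) and 7 of 10 macrophage genes (0.31). Germ cell genes went the other way, with 2 of 5 tested fitted higher (median -1.34). Of 10 hematopoietic genes 3 were fitted higher (median -0.31), and 0 of each list were called in edgeR. The mesenchymal rise was not shared by both Sl/Sl libraries. The summed level was 401 CPM in Sl/Sl replicate 1 and 5283 CPM in replicate 2, against 899 and 1159 CPM in WT clusters. For the summed muscle level the Sl/Sl and WT cluster libraries did not overlap, and the summed mesenchymal and endothelial levels overlapped between genotypes. In Sl/Sl replicate 1 Actc1 alone made 335 of the 368 CPM of the muscle sum. Actc1 had 335 and 328 CPM in Sl/Sl clusters and 5.26 and 12.6 CPM in WT clusters. The part of these cells in the shift was not tested. Scaling to the members' own sum, which by construction centers the members near 0, put the median of all tested genes at 0.21.

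Single libraries changed the size of this shift. Without Sl/Sl clusters replicate 2, the library with 5283 CPM of mesenchymal markers, the median was -0.10 and 54 of 75 members were lower. Without Sl/Sl clusters replicate 1 it was -0.33 with 73 lower. It was -0.22 without WT clusters replicate 2, the library without Kitl counts, and -0.16 without WT clusters replicate 1.

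The members with the smallest p-values were not called either. Rpl37 had 122 and 90.9 CPM in WT clusters and 74.1 and 65.3 in Sl/Sl clusters, a log2 fold change of -0.61 (SE 0.33, adjusted p-value 1 in edgeR). Rpl27a had 104 and 107 CPM in WT against 73.3 and 58.7 in Sl/Sl (-0.68, SE 0.39). The stalk protein Rplp1 had 454 and 392 CPM against 338 and 328 (-0.34, SE 0.21). For each of these 3 genes both Sl/Sl libraries lay below both WT libraries. The highest fitted values were 0.17 for Rpl5, 0.12 for Rpl10a and 0.06 for Rpl13, with SEs of 0.44, 0.47 and 0.38, and each changed sign when 1 library was left out, with ranges of -0.03 to 0.35, -0.35 to 0.48 and -0.12 to 0.23.

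In endothelium, which produces Kitl, 0 of 75 members differed between Sl/Sl and WT in edgeR, against 0% of all tested genes, with 0 at an unadjusted p-value under 0.05 (4.16% of all tested genes) and 0 called by DESeq2 (1.04% of the genes it fitted). The median log2 fold change was -0.06 and 53 members were fitted lower, against 50.1% of all tested genes. Without WT endothelium replicate 2 the median was 0.03 with 33 lower. Rpl12, a protein of the stalk base, had 47.0 and 51.1 CPM in WT and 26.4 and 33.7 in Sl/Sl endothelium, a log2 fold change of -0.71 (SE 0.48). Rps12 and Rpl28 had log2 fold changes of -0.94 (SE 0.81) and -0.87 (SE 0.81). Nearly all windows of these 3 genes occur elsewhere in the genome. On the other side Rpl21 and Rps4x had 0.28 and 0.13, the latter from -0.04 to 0.28 when 1 library was left out.

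The interaction, the genotype difference in endothelium minus that in clusters, was called for 0 of 75 members and 0% of all tested genes in edgeR, with 0 members at an unadjusted p-value under 0.05 (5.28% of all tested genes) and 0 called by DESeq2 (1.02% of the genes it fitted). It was fitted above 0 for 57 of 75 members, against 46.3% of all tested genes, with a median of 0.15. Without Sl/Sl clusters replicate 2 the median was 0.03, with 40 of 75 above 0. The smallest p-values were those of Rps4x (0.45, SE 0.32), Rpl21 (0.58, SE 0.42) and Rpsa (0.47, SE 0.39), the last a protein also known as a laminin receptor. Rpsa had 264 and 207 CPM in WT clusters and 176 and 180 in Sl/Sl clusters, against 148 and 175 in WT endothelium and 194 and 145 in Sl/Sl endothelium. This comparison uses the libraries of both genotype comparisons above and is not further evidence for either.

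**Figure D4:**
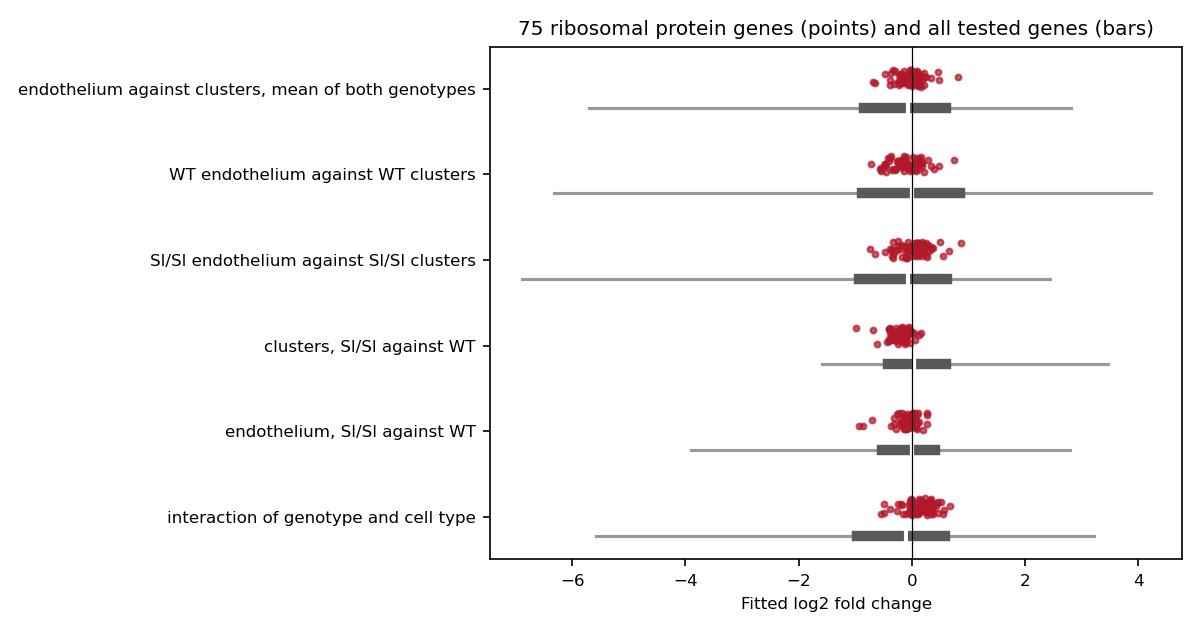
Fitted log2 fold changes of 75 ribosomal protein genes (red points) in 6 comparisons, above the middle 50% (thick gray bar), the middle 90% (thin line) and the median (white mark) of all 13908 tested genes; for the interaction the axis is the difference of 2 fold changes. The members lie in a narrow band around 0, and in clusters the band lies mostly below 0 in Sl/Sl (70 of 75). Members and all tested genes were not matched for level.

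Members tied to disease and members on the X chromosome were followed as groups. Of the 19 members mutated in Diamond-Blackfan anemia 18 were tested, and 0 were called in edgeR or in DESeq2 in any of the 6 comparisons. In these edgeR called 0% to 16.6% of all tested genes and DESeq2 1.02% to 21.2% of the genes it fitted. Their median log2 fold change was 0.03 in endothelium against clusters, where that of all members was -0.02. Between genotypes in clusters it was -0.16, with 17 of 18 fitted lower. This was near the -0.18 and 70 of 75 of all members, against 47.5% of all tested genes. Rps19, Rpl11, Rpl22 and Rpl38 had genotype values in clusters of -0.10, -0.06, -0.28 and -0.29. Of the 4 X-linked members, Rps4x, Rpl10, Rpl36a and Rpl39 had -0.32, -0.06, -0.14 and -0.28.

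Genes that serve the ribosome without being part of it were compared in the same way. Of 56 ribosome biogenesis genes, 15 were lower in endothelium and 0 were higher at an adjusted p-value under 0.1 in edgeR, against 8.12% and 8.48% of all tested genes, and their median log2 fold change was -0.83. Dkc1, the pseudouridine synthase of ribosomal RNA, had 313 and 364 CPM in WT clusters and 291 and 222 in Sl/Sl clusters, against 100.6 and 78.6 in WT endothelium and 91.6 and 97.8 in Sl/Sl endothelium. Its log2 fold change was -1.68 (SE 0.20, adjusted p-value 0.0012 in edgeR). Wdr12, a member of the PeBoW complex of large subunit maturation, fell by 1.86 (SE 0.25) on the log2 scale, and Wdr43, of the small subunit processome, by 1.19 (SE 0.20), with adjusted p-values of 0.00243 and 0.00744 in edgeR.

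Of a list of 38 genes of translation factors and partners, 5 were lower and 0 were higher, with a median of -0.16, against 8.12% and 8.48% of all tested genes. The poly(A) binding protein Pabpc1 fell by 0.83 (SE 0.13), the elongation factor Eef2 by 0.89 (SE 0.14) and the initiation factor subunit Eif3d by 0.92 (SE 0.24) on the log2 scale, all below the adjusted threshold of 0.1 in edgeR. The other 2 were the initiation factor Eif4b and Nap1l1, a nucleosome assembly protein that is no translation factor. Of 77 mitochondrial ribosomal protein genes, 2 were higher and 0 were lower, with a median of -0.04, a smaller share than the 8.48% of all tested genes called higher. These were Mrps6, with 0.92 (SE 0.25), and Mrpl52, with 0.73 (SE 0.21).

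Of 21 regulators of ribosome production tested, 2 were lower in endothelium and 0 were higher, a share near the 8.12% of all tested genes called lower. Mycn had 185 and 84.5 CPM in WT clusters and 154 and 87.3 in Sl/Sl clusters, against 43.4 to 58.0 in the 4 endothelial libraries, with an adjusted p-value of 0.0292 in edgeR. Mycl had 225 and 146 counts in WT clusters, 0 and 185 in Sl/Sl clusters, 8 and 1 in WT endothelium and 0 and 0 in Sl/Sl endothelium. Myc had a log2 fold change of -0.55 (SE 0.32, adjusted p-value 0.316). Of 8 ribosomal genes outside the symbols used here, 0 were called in edgeR (smallest adjusted p-value 0.175). One of them, Fau, which encodes a ribosomal protein fused to a ubiquitin-like sequence, had a log2 fold change of -0.18. These 8 are not a complete set, since Rps3a1 is outside both the symbols and this list. Rps3a1 had 317 and 293 CPM in WT clusters and 240 and 174 in Sl/Sl clusters. In endothelium its levels were 200 and 269 CPM in WT and 216 and 200.5 in Sl/Sl. Between genotypes no tested gene, and so none of these, was called in edgeR.

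**Figure D5:**
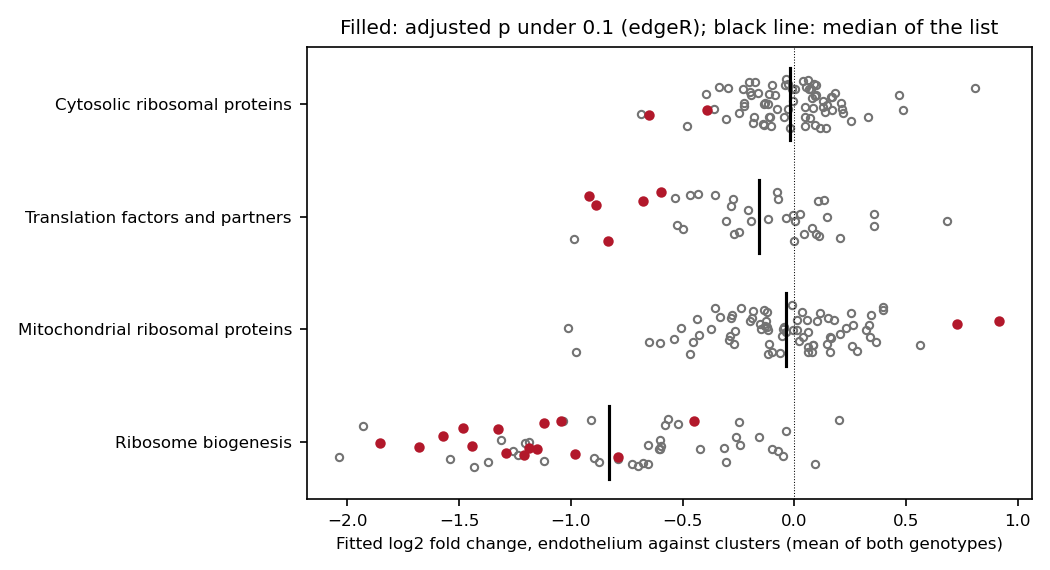
Fitted log2 fold change of endothelium against clusters for the genes of 4 lists; each circle is 1 gene, filled red where the adjusted p-value is under 0.1 in edgeR, and the black line is the list's median. The medians are -0.02 for cytosolic ribosomal proteins, -0.16 for translation factors and partners, -0.04 for mitochondrial ribosomal proteins and -0.83 for ribosome biogenesis.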

How the data were processed

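The authors aligned paired reads to mm9 with STAR 2.4.2a and counted reads per gene with featureCounts (Subread 1.4.5); the counts were deposited as they were made, unnormalized and by library. The gene annotation, strand setting and treatment of reads with several matches are not given in the sources used here. Smart-seq2 adds no molecular identifiers, so counts are not independent molecules.

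From the counts, edgeR 4.0.16 in R 4.3.3 (filterByExpr, TMM, quasi-likelihood test) was fitted to 13908 genes in all 8 libraries. Each gene had its own estimate of spread, shared by the 4 groups and moderated across genes. The biological coefficient of variation common to all tested genes was 0.817. P-values were Benjamini-Hochberg adjusted over all tested genes, with a threshold of 0.1. With 2 libraries a group, no source says that replicates came from separate litters, so p-values measure the spread between these samples. CPM used TMM-scaled totals. RPKM used plain totals and the exon lengths of the table. The tests were checked on simulated data between cell types and between genotypes in clusters, with changes far larger than those fitted for the members. EdgeR recovered part of the changed genes in both and fewer between genotypes, and in both a far larger share of DESeq2's calls than the threshold allows fell on unchanged genes. Smaller changes were not simulated, so 0 calls do not show that genotypes are alike.

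The members and lists were chosen with earlier results of these data known. Named genes were those with the 5 highest and 5 lowest levels, the smallest p-values in each comparison (5 per direction between cell types, 3 between genotypes, 3 for the interaction), the 3 widest spreads, textbook members, and up to 3 called genes per list and direction. The descriptions by copied windows (75 bases every 10), overlaps, TOP starts, fold range and length were chosen after the values were seen and carry no test. Alternatives were other scalings and filters, a threshold of 0.05, DESeq2 1.42.0, fits on 4 libraries, a replicate block, length offsets and leaving out each library. Some genes that these rules name are not reported here by name. They stay in the fits and counts, and those among the members are left out of the plots that label genes.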

Additional observations from a re-analysis of the deposited data

Results flagged for a closer look

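Mrpl52, a mitochondrial ribosomal protein, had fitted genotype differences of opposite direction, neither of them called in edgeR. It was picked for this pattern after the values were seen. Its levels were 69.1 and 66.7 CPM in WT clusters against 97.2 and 82.4 in Sl/Sl clusters, and 146 and 141 CPM in WT endothelium against 122 and 112 in Sl/Sl endothelium. The genotype log2 fold change was 0.403 in clusters and -0.291 in endothelium. The interaction was -0.694, with an adjusted p-value of 0.936 in edgeR.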

How the results depend on the processing

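The count of 2 called members in endothelium against clusters was 1 with scaling to the members' sum, with no filter on low counts, with the replicate block and with length offsets, 0 at an adjusted p-value under 0.05, and 0 to 1 when 1 library was left out. In WT alone the count was 1 with length offsets (Rpl4). No source says whether a replicate number marks one of the 2 sorting experiments, and deviations of same-numbered samples correlated at -0.111 to 0.157, so the numbers were not taken as pairs. The replicate block changed no other call on the members. Scaling to the members' sum, which centers them near 0 by construction, moved the median in WT endothelium against clusters to 0.0437, the genotype median in clusters to -0.00192 and the interaction to -0.0176. Leaving out 1 library gave medians of -0.326 to -0.0989 for genotype in clusters, 0.0281 to 0.278 for the interaction and -0.0247 to 0.176 for Sl/Sl endothelium against clusters. The share of counts in Sl/Sl endothelium was 1.96% on TMM-scaled totals, and the 5 highest members by counts held 34.3% of the members' counts. Leaving out 1 library changed the sign of the genotype values of Rpl10a in clusters (-0.351 to 0.481), Rpl13 (-0.124 to 0.232) and Rpl5 (-0.0338 to 0.347), and of Rps4x in endothelium (-0.036 to 0.277). The causes were not tested.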
